A study of Mus musculus with 3 samples.

Results

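The Wnt pathway of the embryonic kidney was followed through 44 genes of the 32285 in the count tables. They comprised 6 ligands, 14 receptors and co-receptors, 7 R-spondins with their receptors and the ubiquitin ligases they act on, 7 secreted inhibitors, 6 genes of the destruction complex with beta-catenin, and 4 TCF/LEF factors. They were chosen by gene symbol, with earlier results of these data known, and all 44 had a row in the tables. Wnt4 and Wnt11 were left out of the choice.

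Whole kidneys of mouse embryos at E15.5 were profiled by droplet single-cell RNA-seq, which counts unique molecular identifiers (UMIs) at the 3′ ends of transcripts, in 3 groups of 1 library each. Enl-WT embryos were Enl+/+ Wt1 GFPCre/+. Enl-T1 embryos were Enl flox-T1/+ Wt1 GFPCre/+, in which Cre switches 1 Enl allele to a Wilms tumour insertion in the acyl-lysine reader domain of ENL, a chromatin protein that helps RNA polymerase II elongate. Enl-T1 TDI-11055 embryos had the Enl-T1 genotype, and their mothers had received TDI-11055, a small molecule that occupies the reader pocket of ENL, by mouth at 100 mg/kg once a day from E10.5 to E14.5. All 3 groups carried the Wt1 GFPCre knock-in, which inactivates 1 Wt1 allele and, per the study, is active in the nephron and stromal lineages and not in the ureteric epithelium. Kidneys of more than 1 embryo were pooled in the Enl-WT and Enl-T1 libraries with no map from cells to embryos, so the spread between embryos of a group could not be measured and no difference between groups has a test. The number of embryos behind the treated library is not given in the sources used here. Counts at the 3′ end of Mllt1, the gene of ENL, cannot tell the mutant from the normal allele and so do not check the genotypes.

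Wnt ligands are secreted, lipid-modified proteins that bind Frizzled receptors. With the co-receptors LRP5 and LRP6 they inactivate the destruction complex, and the beta-catenin that accumulates acts with TCF/LEF factors on target genes. Other Wnts, WNT5A among them, signal through ROR1, ROR2 and RYK without beta-catenin. In the kidney, WNT9B from the ureteric bud acts on the cap mesenchyme, WNT7B from the collecting duct acts on the medullary stroma, and R-spondins made by progenitors raise the amount of Frizzled at the cell surface.

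The libraries differed in ways that bear on every comparison. Cells with 1000 to 6000 genes and at most 10% mitochondrial UMIs were kept, which left 5233 of 7186 barcodes in Enl-WT, 4144 of 6575 in Enl-T1 and 2754 of 6453 in Enl-T1 TDI-11055. The kept cells held a median of 5090, 9391 and 16931.5 UMIs, and ribosomal protein genes took a median of 16.5%, 26.8% and 27.9% of them. Cells of female embryos made up 26.5%, 73.3% and 35.1% of the libraries, and between 5 and 8 kept barcodes were shared by any 2 libraries. Log2 ratios of Enl-T1 over Enl-WT declined with exonic length across genes, with Spearman coefficients of -0.52 to -0.35 over the 8 cell classes, and those of the treated over the untreated Enl-T1 library with coefficients of -0.47 to -0.08. The part of depth, embryo sex, ribosomal share and gene length in the differences below was not tested beyond the alternatives given in the closing section.

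Cells were clustered without any Wnt pathway gene and classes were named from marker lists. Levels are given as CPM, the UMIs of a gene per 1000000 UMIs summed over a class, with mitochondrial, ribosomal protein and haemoglobin genes left out of the total, and with exact 95% Poisson intervals that cover counting error only. The 8 classes with at least 50 cells in each library were nephron progenitor (NP1-like), committed-like, distal tubule/loop of Henle-like, ureteric tip-like, ureteric trunk-like, urothelium-like, Foxd1 stroma-like and endothelial-like cells. Their own markers were detected in each library except for 1 of 10 distal tubule markers in each library and 1 of 10 urothelium markers in Enl-T1 TDI-11055. The summed level of a class's own markers differed between libraries, as in the distal class, at 2681, 1036 and 1249 CPM, and in urothelium-like cells, at 3059.8, 5685 and 1712 CPM. Here and below, 3 values in a row are those of the Enl-WT library, the untreated Enl-T1 library and the library of TDI-11055-treated Enl-T1 embryos (the treated library), in that order. In urothelium-like cells the 10 trunk markers summed to 4040, 5728 and 5409 CPM, above the class's own markers in each library. In tip-like cells they summed to 3620, 5276 and 4387 CPM. That was also above the class's own 8 markers in each library, at 2294, 2000 and 2202 CPM. In the distal class the 10 committed markers summed to 1272, 1631 and 1344.5 CPM and the 10 trunk markers to 1184, 1753 and 1824 CPM. Both sums were above the class's own markers in the untreated and treated Enl-T1 libraries, so its name fits those libraries less well. In the committed-like, distal, trunk-like and Foxd1 stroma-like classes different clusters held most of the cells in different libraries. The committed-like class came from a cluster led by Osr2, Cdh6 and Dll1 for 64.1%, 40% and 38.4% of its cells, and otherwise from a cluster led by Npy, Lama4 and Lhx1. The mixes of the other 3 classes stand beside their results.

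In Enl-WT kidneys the 44 members were spread over all lineages. Over the 11 classes with at least 50 cells in Enl-WT and Enl-T1, which add the medullary, ureteric and renin/mesangial stroma-like classes, 14 members were highest in a nephron class, 15 in a stromal class, 14 in a ureteric epithelial class and 1 in endothelial-like cells. For 14 of the 44 the interval of the highest class did not overlap that of the next.

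The ligands had separate sources. Wnt5a was highest in medullary stroma-like cells, at 287 CPM (236 to 345), clear of the ureteric tip-like cells at 74.7 CPM. Wnt9b was highest in ureteric trunk-like cells, at 85.0 CPM (73.7 to 97.7), against 14.8 CPM in the tip-like cells. Wnt7b was highest in urothelium-like cells at 163 CPM, which did not differ beyond counting error from the 159 CPM of the trunk-like cells, and its median over the 11 classes was 1.58 CPM. Within the urothelium-like class it was 191 CPM in a cluster led by Gsdmc2 and Spp1, which made up 71.6% of the class. In the cluster led by Upk1b and Upk1a it was 94.7 CPM, below the trunk-like level. Wnt6, at 8.95 CPM in tip-like cells, and Wnt5b, at 18.5 CPM in Foxd1 stroma-like cells, each had an interval that overlapped that of the next class. Wnt2b gave only 12, 8 and 9 UMIs in all kept cells of the 3 libraries and could not be placed.

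The R-spondins were highest in progenitors. Rspo1 was at 143.8 CPM in NP1-like cells and 57.4 CPM in committed-like cells, and the nephron lineage held 92.8% of its UMIs. Rspo3 was at 166 CPM in NP1-like cells, 66.3 CPM in Foxd1 stroma-like cells and 36.6 CPM in endothelial-like cells. Their receptors lay further along the nephron: Lgr5 was highest in the distal class, at 107 CPM, and Lgr4 in the committed-like class, at 219.7 CPM, beside 201 CPM in the distal class. Of the 7 inhibitors, 4 were highest in a stromal class. Dkk2 was at 418 CPM (369 to 471) in renin/mesangial-like cells, Sfrp1 at 400.3 CPM in Foxd1 stroma-like cells and Sfrp2 at 544 CPM in ureteric stroma-like cells, each clear of its next class.

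Receptors and the intracellular genes were more widely spread. The Frizzled genes Fzd1 and Fzd7 were highest in ureteric stroma-like cells, at 328 and 126 CPM, while Fzd4 was highest in the distal class, at 217 CPM, ahead of endothelial-like cells at 172 CPM. Among the TCF/LEF genes, Tcf7l1, which represses targets in the absence of beta-catenin, was highest in NP1-like cells at 262 CPM, and Lef1 was highest in medullary stroma-like cells at 138 CPM, with an interval that overlapped that of the distal class at 121 CPM. Axin2, a destruction complex gene that beta-catenin itself switches on, was highest in ureteric tip-like cells at 68.0 CPM and lowest in urothelium-like cells at 2.84 CPM.

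**Figure D1:**
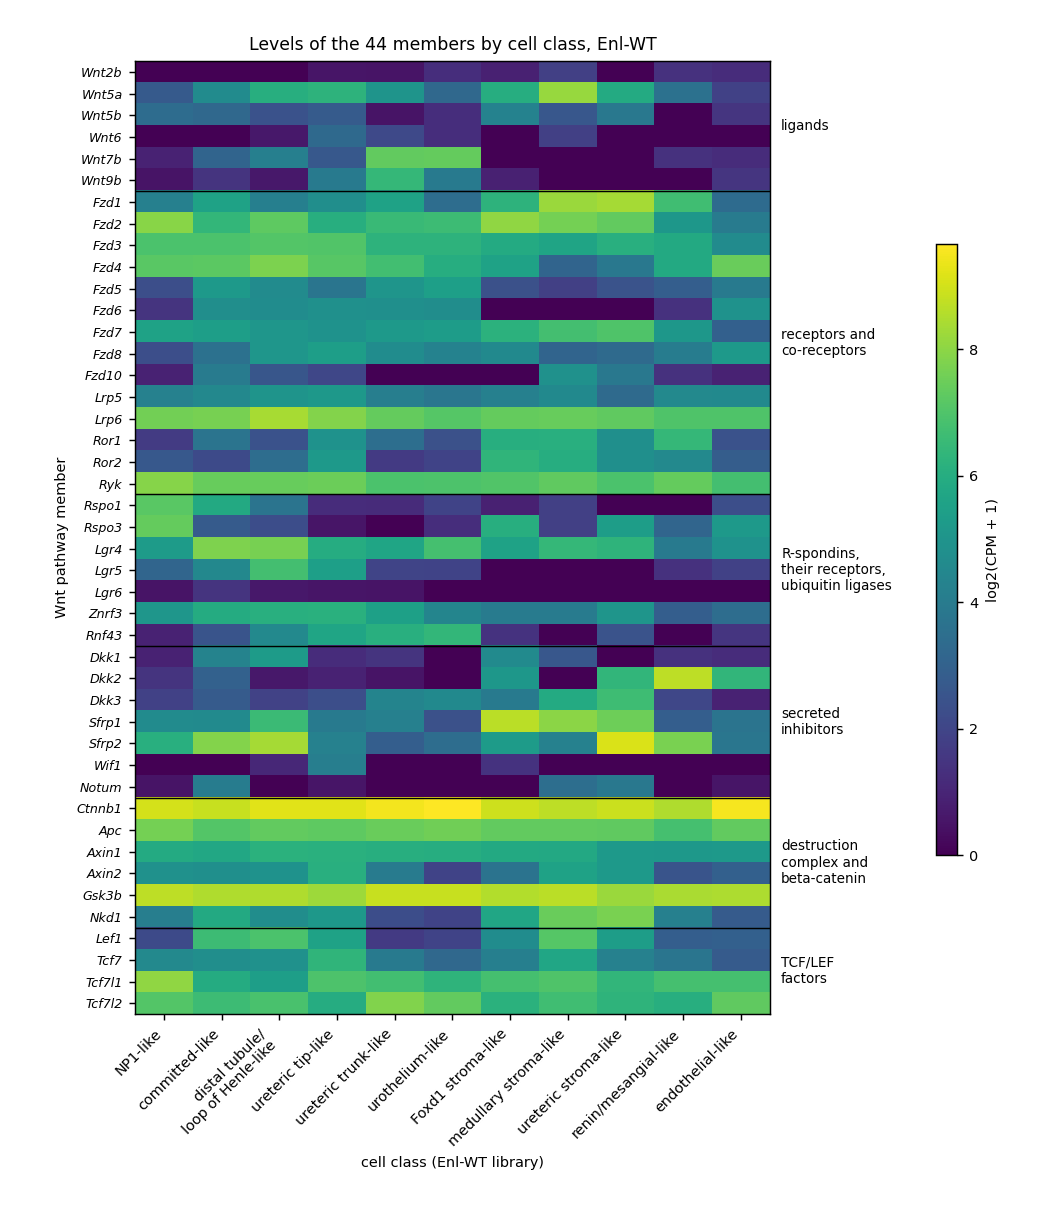
Levels of the 44 members in the 11 cell classes of the Enl-WT library. Rows are genes grouped by role, columns are cell classes, and colour gives log2(CPM + 1); ligands of the ureteric epithelium (Wnt7b, Wnt9b), R-spondins of the progenitors and inhibitors of the stroma stand in separate columns.

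The comparison of Enl-T1 with Enl-WT asked how the pathway differed within a class when 1 Enl allele was mutant. Genes with a mean of at least 10 CPM over the 2 libraries were compared, and a pair of member and class was counted when it differed by 1.5-fold or more. Of 352 pairs 219 passed the filter. In Enl-T1, 88 of them differed, or 40.2% (background over all genes 30.5%), with 21 higher and 67 lower, from 14 and 26 genes. Over all genes 7735 of 73739 pairs were higher and 14773 lower. The members' median log2 ratio was -0.32 against class medians over all genes of -0.18 to -0.09. The split depended on the scaling: 15 higher and 87 lower as CPM of all genes, 27 and 56 with median-of-ratios scaling, and 30 and 42 after centring on genes of like exonic length. The 3 members that never passed the filter were Wnt2b, Wnt6 and Lgr6, and 14 members passed it in all 8 classes.

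The comparison of the treated with the untreated Enl-T1 library asked how the pathway differed under the inhibitor. It shares the Enl-T1 library with the first comparison, so an extreme value there moves both ratios, in opposite directions. Of the 209 pairs that passed the filter, 75 differed, or 35.9% (background 21.4%), with 18 higher and 57 lower in the treated library, from 12 and 29 genes. Over all genes 5946 of 72216 pairs were higher and 9544 lower. The members' median log2 ratio was -0.27, and class medians over all genes lay between -0.10 and 0.05.

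The classes did not contribute alike. In Foxd1 stroma-like cells 8 of 31 members were higher in Enl-T1 and 9 lower (background 12.6% and 20.1%). In committed-like cells 7 of 33 were higher and 14 lower (background 11.1% and 22.5%). In the distal class 2 of 31 were higher and 13 lower (background 12.5% and 21.3%), in tip-like cells 3 of 32 and 7 (background 8.17% and 17.7%), and in endothelial-like cells 1 of 20 and 3 (background 8.78% and 16.3%). In NP1-like, trunk-like and urothelium-like cells no member that passed the filter was 1.5-fold higher in Enl-T1 (background 10.6%, 9.59% and 10.3%), against 6 of 23, 8 of 27 and 7 of 22 lower (background 18.9%, 21% and 22.5%). Under treatment, endothelial-like cells had 12 of 19 members lower and 0 higher (background 18% and 8.36%), while trunk-like cells had 4 of 26 higher and 1 lower (background 7.73% and 5.73%), and urothelium-like cells 4 of 24 higher and 0 lower (background 11.6% and 9.24%). Committed-like cells had 4 of 29 higher and 14 lower (background 9.26% and 22.6%), the distal class 2 of 30 and 12 (background 8.93% and 20.6%), and Foxd1 stroma-like cells 2 of 28 and 9 (background 9.79% and 13.8%). NP1-like cells had 2 of 23 higher and 5 lower (background 5.71% and 8.27%), and tip-like cells 0 of 30 and 4 (background 4.46% and 7.72%).

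**Figure D2:**
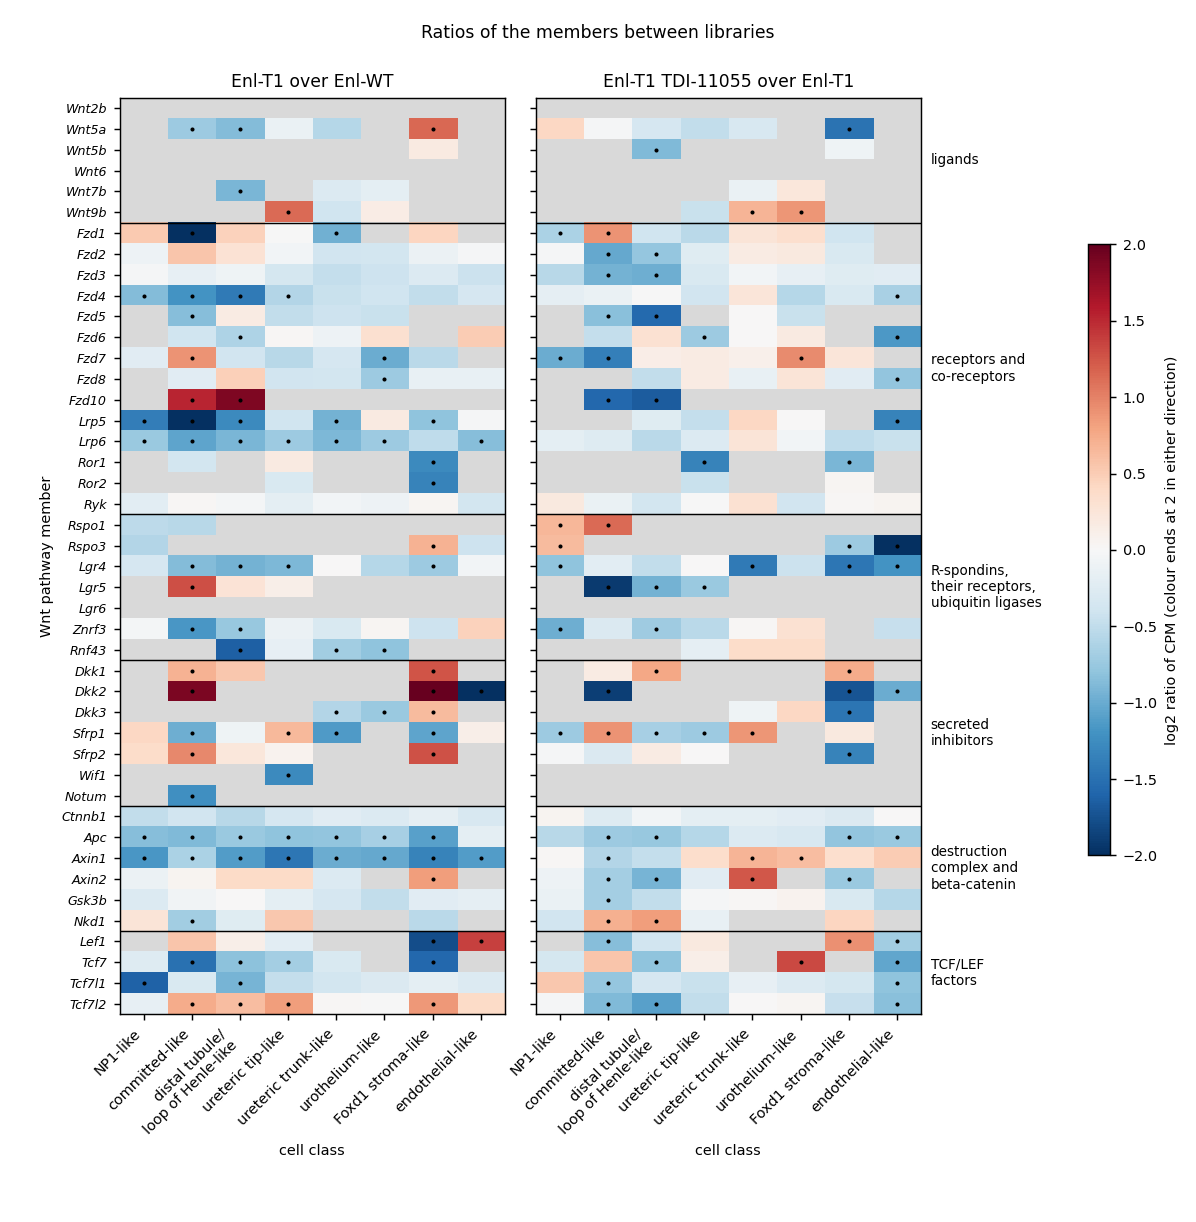
Log2 ratios of the members in the 8 classes, untreated Enl-T1 over Enl-WT and treated over untreated Enl-T1. Rows are genes by role, grey marks pairs under 10 CPM, a dot marks a difference of at least 1.5-fold, and the colour scale ends at 2 in either direction; Lrp6, Apc and Axin1 stand out as near-continuous rows of lower values in Enl-T1.

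Among the ligands, 2 of 12 pairs were higher and 3 lower in Enl-T1 (background 30.5% in either direction). Under treatment 2 of 13 were higher and 2 lower (background 21.4%). Over all genes 7735 of 73739 pairs were higher and 14773 lower in Enl-T1, and 5946 of 72216 higher and 9544 lower under treatment. The counts by role below stand beside the same background. Wnt5a, at chr14:28504750-28527448 on the plus strand of GRCm38, encodes a ligand that acts mainly without beta-catenin. Wnt5a in Foxd1 stroma-like cells was 62.9 CPM in Enl-WT (75 UMIs), 139 CPM in Enl-T1 (320 UMIs) and 49.8 CPM in Enl-T1 TDI-11055 (68 UMIs). Enl-T1 thus stood above both other libraries, at 2.21-fold over Enl-WT (1.72 to 2.89), and the treated library was at 0.357 of Enl-T1 (0.271 to 0.466). The study itself drew Wnt5a from these libraries, so its direction here is not independent evidence. Apart from the libraries, the study reported higher Wnt5a in Enl-T1 by RNA in situ hybridization, in stromal cells at the edge of the cap mesenchyme.

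The size of the Wnt5a difference depended on which stromal cells were compared. Within the class, the cluster led by Dkk1, Gdnf and Aldh1a2 gave 36.0, 112 and 26.0 CPM. The cluster led by Ntn1, Igfbp6 and Cldn1 gave 75.9, 135 and 75.2 CPM, and the cluster led by Egfl6, Npy and Dlk1 gave 127, 177 and 91.2 CPM. Enl-T1 was the highest library in all 3 clusters, but the last cluster, where Wnt5a was highest, made up 11.6%, 36.4% and 22.5% of the class. With the clusters weighted alike the log2 ratio of Enl-T1 over Enl-WT was 0.82 in place of 1.15. In medullary stroma-like cells the 3 levels were 287, 258 and 272 CPM, the last from 19 cells, so the difference did not extend to the class with the most Wnt5a. Over 9 stromal classes and clusters Wnt5a was above its Enl-WT level in Enl-T1 in 6, and lower in the treated library than in Enl-T1 in 8. In the distal class, which is epithelial and whose markers and clusters differed between the libraries, it was instead 65.2, 36.0 and 28.4 CPM.

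The share of Foxd1 stroma-like cells with a Wnt5a UMI separated the libraries less than the level did. After thinning each cell to 2000 UMIs the shares were 11.3% (7.99 to 15.4, Clopper-Pearson) in Enl-WT, 15.9% (12.3 to 20.1) in Enl-T1 and 7.5% (3.49 to 13.8) in Enl-T1 TDI-11055, with 8, 1 and 0 shallower cells left out. The intervals of Enl-WT and Enl-T1 overlapped, so at this depth the share did not separate them. Without thinning, 20.8%, 48.9% and 35.8% of the cells had a UMI, in a class with medians of 4216, 7863 and 15647 UMIs a cell. In endothelial-like cells the thinned shares of Wnt5a were 0.259%, 1.17% and 0.862%, and the median depth was 5664, 10456 and 14335.5 UMIs. In the Foxd1 class the summed level of its own 8 markers was 3189, 2158 and 2703 CPM and that of the 8 medullary markers 3134, 2890 and 2749 CPM. The medullary sum was above the class's own in the untreated and treated Enl-T1 libraries, so its name fits those libraries less well. The difference in Wnt5a had the same direction within cells of male embryos, at 60.1, 116 and 47.5 CPM, and of female embryos, at 64.4, 142 and 47.8 CPM.

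Wnt9b, the ureteric inducer of the cap mesenchyme, was 85.0, 64.5 and 103 CPM in trunk-like cells. That was 0.758 of Enl-WT in Enl-T1 (0.618 to 0.930), under 1.5-fold, and 1.60-fold over Enl-T1 with treatment (1.32 to 1.95). In tip-like cells it was 14.8, 32.4 and 23.9 CPM (33, 62 and 127 UMIs), which was 2.19-fold higher in Enl-T1 (1.42 to 3.46). The trunk markers in tip-like cells also summed highest in Enl-T1, as given above, and their part in this value was not tested. In urothelium-like cells Wnt9b was 14.2, 15.8 and 29.0 CPM, 1.83-fold higher with treatment (1.08 to 3.06). The trunk-like class mixes a cluster led by Aqp2 and Rhcg, which made up 53.4%, 41.1% and 63.5% of it, with a cluster led by Tmem213 and Spink8. Wnt9b was 101, 106 and 117 CPM in the former and 61.1, 37.7 and 80.9 CPM in the latter. The ureteric epithelium held 95.7% to 98.3% of all Wnt9b UMIs in every library.

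Wnt7b in its highest class, urothelium-like cells, was 163, 143 and 168 CPM, with ratios of 0.877 (0.712 to 1.09) and 1.17 (0.962 to 1.42). Neither interval left out 1. Wnt5b in Foxd1 stroma-like cells was 18.5, 20.9 and 19.8 CPM, and its ratios, 1.13 (0.671 to 1.97) and 0.946 (0.568 to 1.55), had intervals that included 1.

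Wnt6, a ligand of the ureteric bud at chr1:74771892-74785322 on the plus strand of GRCm38, was too low for the filter but was lower in Enl-T1 throughout the ureteric epithelium. Summed over that lineage, a value chosen after the levels were seen, it was 10.8 CPM in Enl-WT (94 UMIs), 1.71 CPM in Enl-T1 (19 UMIs) and 12.2 CPM in Enl-T1 TDI-11055 (166 UMIs). Enl-T1 was at 0.159 of Enl-WT (0.0917 to 0.262), and the treated library at 7.16 times Enl-T1 (4.44 to 12.2). Enl-T1 was the lowest library in 8 of 8 ureteric classes and clusters. In tip-like cells, the highest named class, the levels were 8.95, 3.13 and 8.86 CPM from 20, 6 and 47 UMIs. In an unnamed ureteric cluster led by Lix1 and Tm4sf20 they were 38.1, 2.16 and 38.5 CPM from 23, 1 and 60 UMIs. The order was the same in cells of male embryos, at 8.63, 2.42 and 10.49 CPM, and of female embryos, at 12.1, 1.33 and 14.4 CPM. All 8 tip markers were detected in tip-like cells of each library, but the trunk markers summed higher there, as given above.

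Receptors and co-receptors made up 86 of the pairs compared in Enl-T1, of which 3 were higher and 24 lower (background 30.5% in either direction). Under treatment they made up 80, of which 2 were higher and 18 lower (background 21.4%). The co-receptor gene Lrp6 was lower in Enl-T1 in 7 of 8 classes, at log2 ratios of -1.06 to -0.73, and at -0.51 in Foxd1 stroma-like cells, which did not pass. In NP1-like cells it was 195, 117 and 102 CPM, in the distal class 337, 178 and 122 CPM, and in endothelial-like cells 127, 70.5 and 51.7 CPM, where Enl-T1 was at 0.556 of Enl-WT (0.453 to 0.679). After centring on genes of like exonic length, Lrp6 passed 1.5-fold in 0 of 8 classes. The count for Lrp6 thus rests on the scaling. Its partner Lrp5 was lower in 5 of 8 classes, and in 3 after centring. Lrp5 was 22.0, 4.04 and 9.44 CPM in committed-like cells (38, 3 and 15 UMIs), a ratio of 0.183 (0.0362 to 0.578). In NP1-like cells it was 17.9, 6.84 and 5.53 CPM, a ratio of 0.382 (0.206 to 0.679), and in trunk-like cells 16.6, 8.57 and 11.5 CPM, a ratio of 0.517 (0.300 to 0.876). In endothelial-like cells Lrp5 was 23.2 and 22.9 CPM in Enl-WT and Enl-T1 and 9.03 CPM with treatment, at 0.395 of Enl-T1 (0.185 to 0.770).

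Fzd10, at chr5:128600844-128604093 on the plus strand of GRCm38, was the Frizzled gene with the largest excess in Enl-T1. In committed-like cells it was 15.1, 43.1 and 14.47 CPM (26, 32 and 23 UMIs), 2.86-fold higher in Enl-T1 (1.65 to 4.99) and at 0.336 of Enl-T1 with treatment (0.188 to 0.592). In the distal class it was 4.93, 17.98 and 5.68 CPM (9, 10 and 8 UMIs), with ratios of 3.65 (1.33 to 10.2) and 0.316 (0.108 to 0.889). Enl-T1 was the high library in both, and in both clusters of the committed-like class, at 7.69, 20.2 and 5.19 CPM and 26.3, 58.4 and 23.2 CPM. Over the whole nephron lineage, a sum chosen after the levels were seen, Fzd10 had 64, 256 and 95 UMIs, or 5.96, 28.2 and 7.52 CPM. That was 4.74-fold higher in Enl-T1 (3.59 to 6.33), with the treated library at 0.267 of Enl-T1 (0.208 to 0.339). Cells of male embryos gave 5.78, 26.0 and 9.45 CPM, and cells of female embryos 6.47, 28.6 and 6.61 CPM. In an unnamed nephron cluster led by Prrx1 it was 18.2, 51.2 and 23.7 CPM. In the stromal lineage Fzd10 was 14.6, 26.3 and 14.9 CPM.

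**Figure D3:**
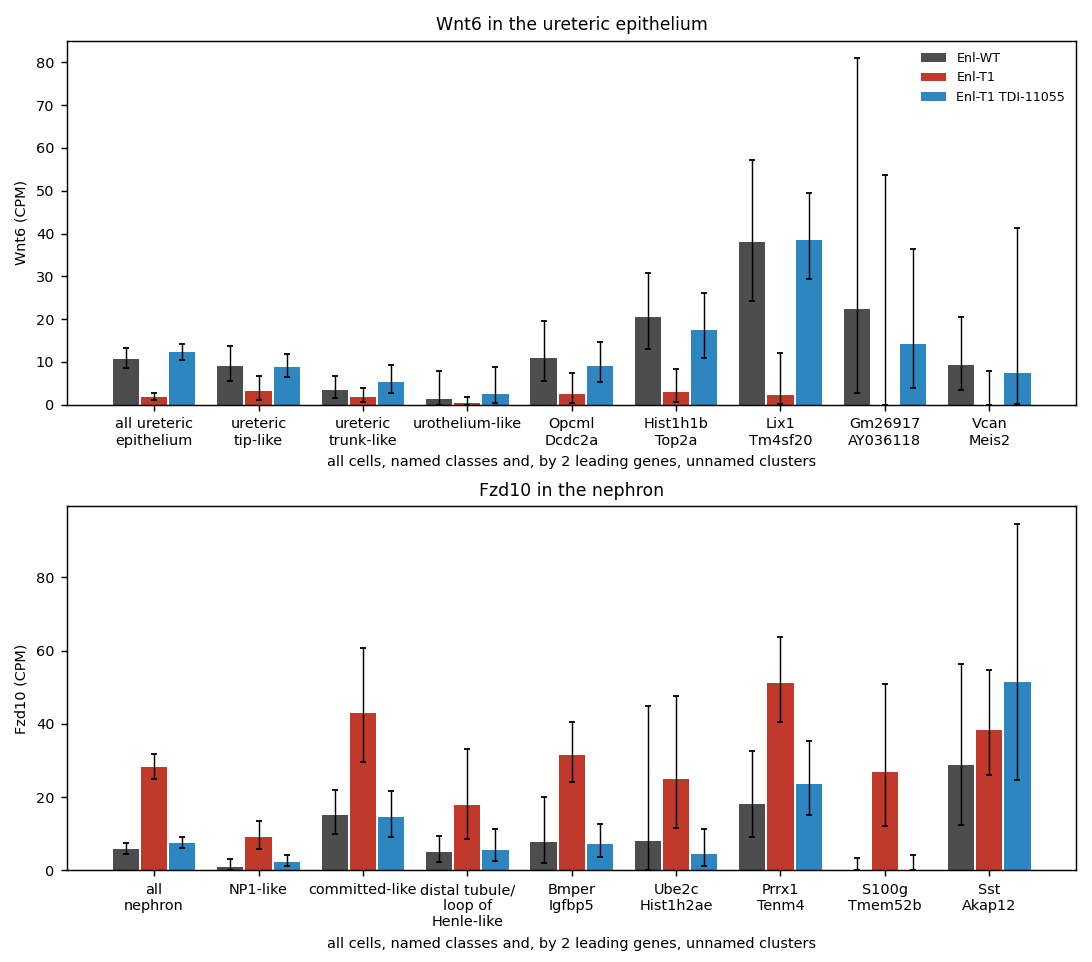
CPM of Wnt6 in the ureteric epithelium and of Fzd10 in the nephron lineage, in all cells of the lineage, in its named classes and in its unnamed clusters, for the 3 libraries. Bars are CPM with 95% Poisson intervals; over the lineage Enl-T1 is the lowest library for Wnt6 (1.71 CPM) and the highest for Fzd10 (28.2 CPM).

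The other Frizzled genes were mostly lower or within 1.5-fold. Fzd1 was 46.4, 8.08 and 15.1 CPM in committed-like cells (80, 6 and 24 UMIs), a ratio of 0.174 (0.0621 to 0.396), and 46.8, 24.0 and 28.7 CPM in trunk-like cells, a ratio of 0.513 (0.375 to 0.699) whose log2 value was 0.01 with at most 5% mitochondrial UMIs. Fzd4, the endothelial and epithelial receptor for norrin, was lower in Enl-T1 in 4 of 8 classes, and in 3 after length centring. In the distal class, where it was highest, it was 217, 80.9 and 80.2 CPM, a ratio of 0.373 (0.268 to 0.509). The distal markers were also lower in these libraries, as given above, and 62.5% and 72.3% of the class in Enl-T1 and Enl-T1 TDI-11055, against 44.6% in Enl-WT, came from its cluster led by Cxcl14 and Sim1. With clustering on all variable genes a cluster led by Cxcl14 and Sim1 was named committed-like instead. The part of this mix in the differences of the distal class was not tested.

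Fzd7 differed by class. In committed-like cells it was 41.7, 78.1 and 30.2 CPM, higher in Enl-T1 and at 0.387 of Enl-T1 with treatment (0.258 to 0.577). In urothelium-like cells it was 39.8, 20.1 and 38.7 CPM, at 0.505 of Enl-WT in Enl-T1 (0.318 to 0.821) and 1.93-fold over Enl-T1 with treatment (lower limit 1.21). In NP1-like cells it was 46.8, 39.9 and 19.9 CPM, at 0.499 of Enl-T1 with treatment (0.372 to 0.667). Treatment also went with lower Fzd2 in committed-like cells, at 82.9, 121 and 59.8 CPM, and with lower Fzd5 in the distal class, at 24.1, 26.97 and 9.23 CPM. Fzd6 was 27.7, 28.2 and 17.2 CPM in tip-like cells and 29.5, 42.0 and 18.9 CPM in endothelial-like cells, and Fzd8 was 36.2, 32.7 and 18.9 CPM in the latter. For these pairs the treated library was at 0.342 to 0.608 of Enl-T1, with intervals below 1. Fzd3 was below Enl-WT in Enl-T1 in 8 of 8 classes without passing 1.5-fold in any, at ratios of 0.715 to 0.978. After centring on genes of like exonic length its log2 ratio was instead 0.48 in NP1-like, 0.32 in committed-like and 0.40 in distal cells. It was then 0.17 in tip-like, 0.09 in trunk-like, 0.16 in urothelium-like and 0.25 in Foxd1 stroma-like cells. The direction of Fzd3 in these classes thus rests on the scaling.

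Of the receptors that act without beta-catenin, Ror1 and Ror2 were lower in Enl-T1 in Foxd1 stroma-like cells, the class in which Wnt5a was higher. Ror2 was 78.9, 31.4 and 32.2 CPM there (94, 72 and 44 UMIs), at 0.398 of Enl-WT in Enl-T1 (0.288 to 0.546) and 1.03 of Enl-T1 with treatment. It was lower in Enl-T1 in all 3 clusters of the class, at 100 against 35.6, 54.2 against 25.7 and 100 against 32.8 CPM. Ror1 was 66.3, 27.4 and 14.7 CPM, at 0.414 of Enl-WT (0.292 to 0.584) and then 0.534 of Enl-T1 (0.306 to 0.895). By cluster it was 43.6, 40.5 and 13.01 CPM in that led by Dkk1 and Gdnf, where Enl-T1 was at 0.929 of Enl-WT (0.530 to 1.66), 79.5, 21.8 and 22.6 CPM in that led by Ntn1 and 109, 18.5 and 5.07 CPM in that led by Egfl6. Ror1 was thus below Enl-WT beyond counting error in 2 of the 3 clusters. In tip-like cells Ror1 was 29.5, 33.4 and 13.2 CPM, at 0.395 of Enl-T1 with treatment (0.277 to 0.563). Ryk, the pseudokinase receptor, was flat by comparison: it passed the filter in all 8 classes and 1.5-fold in 0, at ratios of 0.772 to 1.03 and 0.765 to 1.23.

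**Figure D4:**
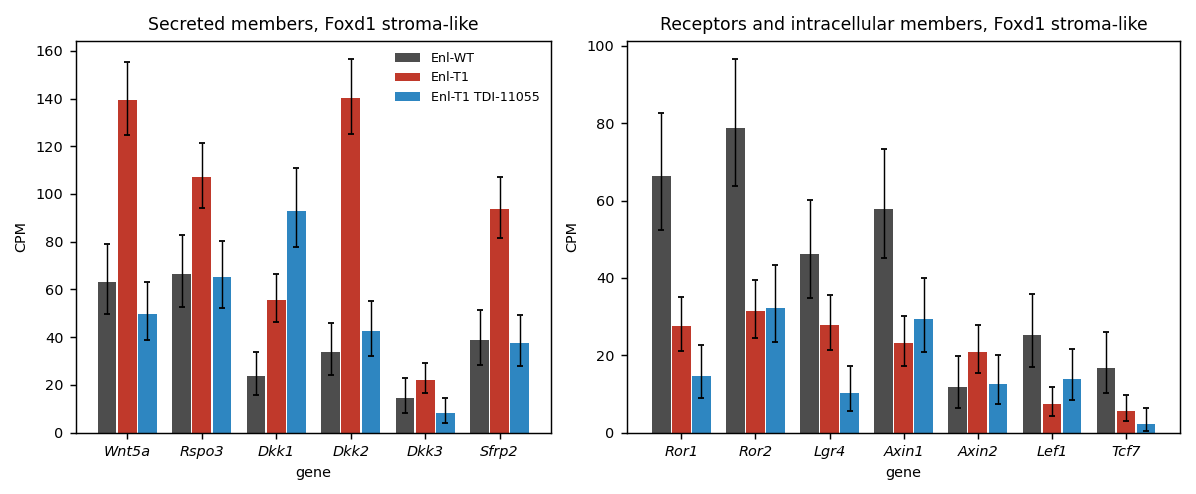
CPM of 13 of the 17 members that differed by 1.5-fold between Enl-T1 and Enl-WT in Foxd1 stroma-like cells, in the 3 libraries; ligands, R-spondin and inhibitors are on the left and receptors and intracellular genes on the right. Bars carry 95% Poisson intervals. Over the whole class Wnt5a, Dkk2 and Sfrp2 peak in Enl-T1, Dkk1 is highest with treatment, and Ror1 and Ror2 are highest in Enl-WT. Not shown are Tcf7l2, which was higher in Enl-T1, and the inhibitor Sfrp1, Lrp5 and Apc, which were lower.

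R-spondins, their receptors and the ubiquitin ligases gave 2 higher and 9 lower of 28 pairs in Enl-T1 (background 30.5% in either direction). Under treatment they gave 3 higher and 11 lower of 26 (background 21.4%). Rspo1 in NP1-like cells was 143.8, 99.9 and 158 CPM (329, 263 and 714 UMIs), at 0.695 of Enl-WT in Enl-T1 (0.588 to 0.819), just under 1.5-fold, and 1.58-fold over Enl-T1 with treatment (1.37 to 1.83). Rspo3 in the same cells was 166, 111 and 172 CPM (380, 292 and 779 UMIs), at 0.668 (0.571 to 0.780), also just under 1.5-fold, and 1.55-fold (1.36 to 1.78). Both were lowest in Enl-T1 in this class, but not over the whole nephron lineage, where Rspo1 was 56.7, 58.4 and 94.1 CPM and Rspo3 41.7, 59.4 and 71.9 CPM. The order Enl-WT, untreated and treated from low to high also held over the lineage for both genes in cells of either sex. The 10 NP1 markers summed to 2439, 1526 and 2396 CPM in these cells, so they moved with the R-spondins, and their part in the result was not tested. In committed-like cells Rspo1 was 57.4, 39.0 and 85.6 CPM, 2.19-fold higher with treatment (1.46 to 3.40).

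Rspo3 outside the progenitors did not follow. The Foxd1 stroma-like class gave 66.3, 107 and 65.2 CPM (79, 246 and 89 UMIs), 1.62-fold higher in Enl-T1 (1.25 to 2.11) and at 0.609 of Enl-T1 with treatment (0.472 to 0.779). None of its clusters had that order. Rspo3 was 22.7, 9.8 and 3.9 CPM in the cluster led by Dkk1 and Gdnf and 93.9, 53.9 and 12.5 CPM in that led by Ntn1. In the cluster led by Egfl6 it was 136, 279 and 411 CPM, 2.05-fold over Enl-WT in Enl-T1 (1.21 to 3.73). The part of the cluster mix in the class value was not tested. With the clusters weighted alike the treated library was the higher one, at a log2 ratio of 0.32 over Enl-T1. In endothelial-like cells, where R-spondin 3 acts on vessels, Rspo3 was 36.6, 27.5 and 6.57 CPM (82, 59 and 8 UMIs), and the treated library was at 0.239 of Enl-T1 (0.0984 to 0.501).

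The receptor gene Lgr4 was lower in 4 of 8 classes in both comparisons. In tip-like cells it was 61.3, 32.9 and 33.0 CPM, at 0.537 of Enl-WT in Enl-T1 (0.392 to 0.729). In trunk-like cells it was instead level between Enl-WT and Enl-T1, at 50.2 and 50.4 CPM, and 18.9 CPM with treatment (0.376 of Enl-T1, 0.261 to 0.532). Foxd1 stroma-like cells had 46.2, 27.9 and 10.3 CPM, and endothelial-like cells 29.0, 28.0 and 12.3 CPM, at 0.368 (0.191 to 0.663) and 0.440 (0.232 to 0.784) of Enl-T1 with treatment. Lgr5, a receptor and target gene of the pathway, was higher in Enl-T1 in committed-like cells and lower with treatment in all 3 classes in which it passed the filter. It was 21.4, 52.5 and 13.8 CPM in committed-like cells (0.264 of Enl-T1, 0.149 to 0.456), 107, 129.5 and 67.4 CPM in the distal class, and 42.5, 46.0 and 27.3 CPM in tip-like cells (0.595 of Enl-T1, 0.453 to 0.784). In committed-like cells the difference was in the cluster led by Osr2, at 27.9, 124 and 26.0 CPM, and the cluster led by Npy held 8, 2 and 2 UMIs.

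The ubiquitin ligases RNF43 and ZNRF3 remove Frizzled from the surface. Rnf43 in its highest class, urothelium-like cells, was 83.8, 47.8 and 61.6 CPM, at 0.570 of Enl-WT in Enl-T1 (0.418 to 0.785). It was, in the distal class, 22.5, 7.19 and 5.68 CPM (41, 4 and 8 UMIs), a ratio of 0.320 (0.0833 to 0.884). It was lower in 3 of the 4 classes compared, and in 1 after length centring. Znrf3 was lower in 2 of 8 classes, with 60.3, 26.9 and 22.0 CPM in committed-like cells. Lgr6 reached no more than 1.74 CPM in any Enl-WT class.

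The secreted inhibitors had as many pairs higher as lower in Enl-T1, 8 and 8 of 23 (background 30.5% in either direction), with a median log2 ratio of 0.23. Under treatment 4 of 20 were higher and 8 lower (background 21.4%). Foxd1 stroma-like cells held 4 of the 8 higher pairs. Dkk2, a diffusible inhibitor of LRP co-receptors, was 33.6, 140.2 and 42.5 CPM there (40, 322 and 58 UMIs). It was 4.18-fold higher in Enl-T1 (3.002 to 5.96), and the treated library was at 0.303 of Enl-T1 (0.225 to 0.402). The 3 clusters of the class gave 15.2, 57.7 and 32.5 CPM, 18.1, 126 and 20.04 CPM, and 200, 252 and 127 CPM in the order above. Enl-T1 was the highest library in each, but with clusters weighted alike the log2 ratio was 0.90 in place of 2.06. In committed-like cells Dkk2 was 6.96, 25.6 and 6.92 CPM (12, 19 and 11 UMIs), with ratios of 3.68 (1.70 to 8.31) and 0.271 (0.116 to 0.598).

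In endothelial-like cells Dkk2 went the opposite way between Enl-T1 and Enl-WT, but was also lower with treatment. It was 81.7, 19.6 and 9.86 CPM (183, 42 and 12 UMIs), at 0.240 of Enl-WT in Enl-T1 (0.167 to 0.337) and 0.503 of Enl-T1 with treatment (0.241 to 0.972). The 10 endothelial markers summed to 6357, 6217 and 5735 CPM in these cells, while the 9 renin/mesangial markers, a class in which Dkk2 was at 418, 227 and 270 CPM, summed to 297, 149 and 127 CPM. The part of such cells or their free RNA in the endothelial value was not tested.

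Sfrp2, a Wnt-binding decoy, was 38.6, 93.6 and 37.4 CPM in Foxd1 stroma-like cells (46, 215 and 51 UMIs), with ratios of 2.43 (1.76 to 3.41) and 0.399 (0.288 to 0.544). With the 3 clusters weighted alike its log2 ratio of Enl-T1 over Enl-WT was 0.01 in place of 1.28. The clusters differed: Sfrp2 was 9.47, 12.3 and 20.8 CPM in that led by Dkk1 and Gdnf, 21.7, 66.8 and 17.5 CPM in that led by Ntn1 and 264, 218 and 142 CPM in that led by Egfl6. In the cluster led by Ntn1 it was 3.08-fold higher in Enl-T1 (1.62 to 6.34) and at 0.263 of Enl-T1 with treatment (0.101 to 0.581). In committed-like cells it was 232, 451 and 369 CPM, 1.95-fold higher in Enl-T1 (1.68 to 2.26). Sfrp1 went the other way in Foxd1 stroma-like cells, at 400.3, 194 and 220.5 CPM, and was 17.4, 7.89 and 14.6 CPM in trunk-like cells, at 0.452 of Enl-WT in Enl-T1 (0.259 to 0.772) and 1.85-fold over Enl-T1 with treatment (1.05 to 3.29). The treatment difference was in the trunk cluster led by Tmem213, at 13 UMIs in Enl-WT, 6 in Enl-T1 and 12 with treatment, while in that led by Aqp2 the ratio was 0.995 (0.5001 to 2.01), and the log2 ratio over the class turned to -0.29 in male cells only and also with subclustering at a resolution of 0.5. In tip-like cells Sfrp1 was 14.3, 22.5 and 13.6 CPM. Dkk3 in Foxd1 stroma-like cells was 14.3, 22.2 and 8.06 CPM, at 0.363 of Enl-T1 with treatment (0.171 to 0.705). In the cluster led by Dkk1 and Gdnf it was 9.47, 13.5 and 1.30 CPM. There the ratios were 1.425 (0.456 to 5.23) and 0.0964 (0.00224 to 0.663). Enl-T1 was not above Enl-WT in that led by Ntn1, at 10.8, 8.99 and 10.0 CPM, or in that led by Egfl6, at 54.5, 47.0 and 30.4 CPM. In these the intervals of both ratios included 1. Wif1, a Wnt-binding inhibitor, was 16.6, 6.79 and 11.5 CPM in tip-like cells (37, 13 and 61 UMIs), a ratio of 0.410 (0.200 to 0.790). Notum, the enzyme that strips the lipid from Wnts, was 15.7, 6.73 and 1.26 CPM in committed-like cells from 27, 5 and 2 UMIs.

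Dkk1, a second LRP inhibitor and a known beta-catenin target, was above Enl-WT in Enl-T1 and highest with treatment when each of 3 classes was summed. In Foxd1 stroma-like cells it was 23.5, 55.8 and 93.0 CPM (28, 128 and 127 UMIs), 2.37-fold higher in Enl-T1 (1.57 to 3.71) and a further 1.67-fold with treatment (1.30 to 2.15). Its clusters did not share that order. The cluster led by Dkk1 and Gdnf, which was 40.9%, 34.4% and 49.2% of the class, held 28, 94 and 123 of these UMIs, at 53.03, 115.3 and 160.0 CPM, with the treated library at 1.39 of Enl-T1 (1.05 to 1.83). The cluster led by Ntn1 held 0, 34 and 0 Dkk1 UMIs, at 43.6 CPM in Enl-T1 against upper limits of 6.66 and 9.24 CPM in the other libraries, so there Enl-T1 was the highest. The distal class gave 38.3, 55.8 and 95.1 CPM, and in committed-like cells 19.1, 31.0 and 34.6 CPM. In committed-like cells the last 2 of these levels were close to each other.

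Dkk1 and Dkk2 share a stromal class and differed there in the order of the libraries over the whole class, though not in its cluster led by Ntn1, and their promoters are shown with that of Axin2. The windows are from RefSeq on GRCm38.p6, 250 bases before the start to 50 after it, on the strand of the gene, in lower case with CTTTGA or its reverse complement TCAAAG, the core letters bound by TCF/LEF factors, in capitals. Dkk1 lies at chr19:30549447-30549746 on the minus strand, Dkk2 at chr3:132085042-132085341 on the plus strand and Axin2 at chr11:108920099-108920398 on the plus strand.
Dkk1: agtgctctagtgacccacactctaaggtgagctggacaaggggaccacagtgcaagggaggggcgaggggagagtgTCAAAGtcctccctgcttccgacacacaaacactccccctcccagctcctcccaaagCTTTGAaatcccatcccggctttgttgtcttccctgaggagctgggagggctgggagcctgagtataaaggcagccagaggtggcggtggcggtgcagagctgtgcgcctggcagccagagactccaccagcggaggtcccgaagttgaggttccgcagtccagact
Dkk2: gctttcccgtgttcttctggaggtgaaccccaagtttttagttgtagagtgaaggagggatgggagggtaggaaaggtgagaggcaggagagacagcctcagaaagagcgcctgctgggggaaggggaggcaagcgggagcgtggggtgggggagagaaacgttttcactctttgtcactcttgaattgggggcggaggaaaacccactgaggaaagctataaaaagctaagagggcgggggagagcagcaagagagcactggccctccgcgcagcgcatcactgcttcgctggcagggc
Axin2: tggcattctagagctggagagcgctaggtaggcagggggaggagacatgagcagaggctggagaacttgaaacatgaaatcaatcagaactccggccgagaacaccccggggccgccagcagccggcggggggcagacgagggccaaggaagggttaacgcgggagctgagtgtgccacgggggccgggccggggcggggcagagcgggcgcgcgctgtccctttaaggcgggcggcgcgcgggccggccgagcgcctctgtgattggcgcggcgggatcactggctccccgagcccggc
The Dkk1 window held 2 matches on either strand, and those of Dkk2 and Axin2 held 0. Among all 32851 promoter windows of the same length 16% held the motif, against 6 of 37 windows of the 28 members that had an entry (16.2%), so members did not stand out. The windows with a match belonged to Dkk1, Lef1, Fzd1, Ror1, Wnt5b and Gsk3b. The longer CTTTGATC, which contains the former, was in 308 of all windows (0.938%) and in that of Wnt5b alone among the members. These matches are descriptions of the letters in short windows.

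Within the destruction complex and its associates, 1 of 43 pairs was higher and 16 lower in Enl-T1 (background 30.5% in either direction). Under treatment 5 were higher and 9 lower (background 21.4%). Axin1, the scaffold of the complex, was lower in Enl-T1 in 8 of 8 classes, at ratios of 0.366 to 0.642, and in 7 after length centring. It was 68.4, 25.1 and 31.9 CPM in tip-like cells (153, 48 and 169 UMIs), a ratio of 0.366 (0.259 to 0.510). In trunk-like cells it was 65.9, 33.3 and 53.3 CPM, in urothelium-like cells 64.0, 31.6 and 48.4 CPM, in Foxd1 stroma-like cells 57.9, 23.1 and 29.3 CPM and in endothelial-like cells 36.6, 16.8 and 23.8 CPM. In each of these the treated library lay between Enl-T1 and Enl-WT, and it passed 1.5-fold over Enl-T1 in the trunk-like and urothelium-like cells.

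Apc, the second scaffold, was lower in Enl-T1 in 7 of 8 classes, at log2 ratios of -1.09 to -0.67, but in 0 after length centring. It was at -0.19 in endothelial-like cells, which did not pass. In Foxd1 stroma-like cells it was 159, 74.9 and 43.2 CPM, with ratios of 0.470 (0.380 to 0.581) and 0.577 (0.422 to 0.780), and in endothelial-like cells 163, 142 and 84.6 CPM. Ctnnb1, which encodes beta-catenin, was below Enl-WT in 8 of 8 classes without passing 1.5-fold, at ratios of 0.677 to 0.880; in NP1-like cells it was 523, 369.9 and 383 CPM. Gsk3b, the kinase of the complex, was within 1.5-fold in all 8 classes in Enl-T1. Nkd1, a feedback inhibitor, had 98, 26 and 91 UMIs in committed-like cells and was 1.64-fold higher with treatment (1.05 to 2.64).

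Axin2 is often read as a sign of beta-catenin activity because the pathway switches it on. In tip-like cells, its highest class, it was 68.0, 88.3 and 75.6 CPM (152, 169 and 401 UMIs), 1.30-fold over Enl-WT in Enl-T1 (1.04 to 1.63) and at 0.856 of Enl-T1 with treatment (0.714 to 1.03). In NP1-like cells it was 28.9, 26.6 and 24.8 CPM, with both intervals including 1, and in committed-like cells 27.2, 28.3 and 17.6 CPM. These classes gave no difference of 1.5-fold between Enl-T1 and Enl-WT.

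The largest Axin2 difference with an interval clear of 1 was in trunk-like cells. There it was 15.3, 12.7 and 29.97 CPM (36, 37 and 68 UMIs), 2.36-fold higher with treatment (1.56 to 3.63). In the cluster led by Aqp2 it was 23.3, 31.6 and 39.6 CPM, at 1.25 of Enl-T1 with treatment (0.810 to 1.96), an interval that includes 1. In that led by Tmem213 it was 3.2, 0.56 and 14.1 CPM, from 3, 1 and 12 UMIs. The Aqp2 cluster, where Axin2 was higher, made up 41.1% of the class in Enl-T1 and 63.5% with treatment. The part of that mix in the class value was not tested. The distal class gave 29.0, 37.8 and 19.9 CPM, at 0.526 of Enl-T1 with treatment (0.288 to 0.975), a log2 ratio of -0.93 that was 0.01 when cells were clustered on all variable genes. In Foxd1 stroma-like cells it was 11.8, 20.9 and 12.4 CPM, with ratios of 1.78 (0.965 to 3.50) and 0.596 (0.321 to 1.06). Both of these intervals include 1, so the peak in Enl-T1 was not clear of counting error. In endothelial-like cells it was 6.70, 11.7 and 4.93 CPM, and in urothelium-like cells 2.84, 1.98 and 1.21 CPM from 2, 6 and 1 UMIs, both under the filter.

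Lef1, another gene that the pathway switches on, did not run parallel to Axin2 across classes. In committed-like cells it was 97.4, 144 and 79.9 CPM (168, 107 and 127 UMIs), 1.48-fold over Enl-WT in Enl-T1 (1.15 to 1.90) and at 0.555 of Enl-T1 with treatment (0.426 to 0.724). In NP1-like cells it was 3.50, 11.01 and 1.55 CPM (8, 29 and 7 UMIs), with ratios of 3.15 (1.41 to 7.97) and 0.141 (0.0519 to 0.328), at a level below the filter. Enl-T1 was the highest library in both. Within the committed-like class Lef1 was 74.04, 148 and 73.98 CPM in the cluster led by Osr2 and 133, 141.5 and 85.5 CPM in that led by Npy. The committed markers summed to 177, 239 and 216 CPM in NP1-like cells and to 1967, 2065 and 1773 CPM in committed-like cells.

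In Foxd1 stroma-like cells Lef1 was instead lowest in Enl-T1, at 25.2, 7.404 and 13.9 CPM (30, 17 and 19 UMIs), with ratios of 0.294 (0.152 to 0.551) and 1.88 (0.925 to 3.85), the second of which turned to a log2 ratio of -1.25 with clustering on all variable genes. In endothelial-like cells it was 6.70, 17.3 and 10.68 CPM (15, 37 and 13 UMIs), 2.58-fold over Enl-WT in Enl-T1 (1.38 to 5.06) and at 0.618 of Enl-T1 with treatment (0.302 to 1.19). The distal class gave 121, 131 and 100.1 CPM and the tip-like class 46.1, 39.7 and 45.2 CPM, all within 1.5-fold. Trunk-like and urothelium-like cells held 1 to 5 Lef1 UMIs in each library.

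**Figure D5:**
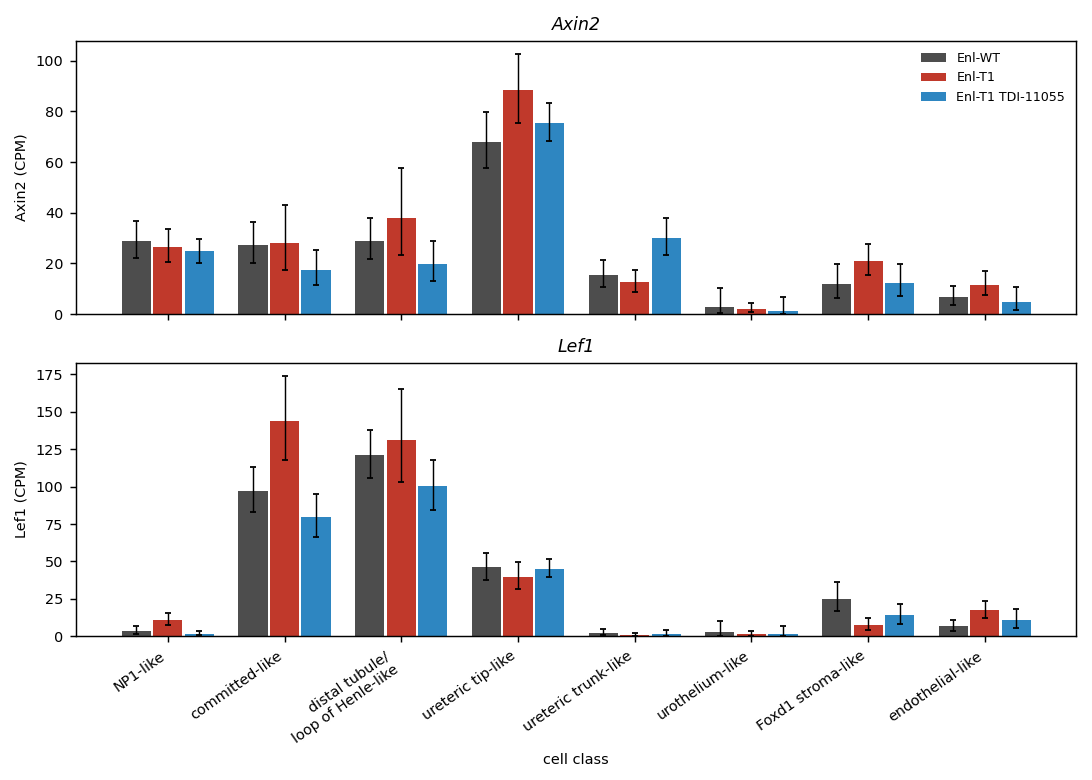
CPM of Axin2 and Lef1 in the 8 classes in the 3 libraries, with 95% Poisson intervals. Axin2 is highest in ureteric tip-like cells in every library, and Lef1 in committed-like and distal cells; with treatment Axin2 is higher in trunk-like cells (29.97 CPM) and Lef1 lower in committed-like cells (79.9 CPM).

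Of the other TCF genes, Tcf7l1 and Tcf7 were lower and Tcf7l2 higher in Enl-T1 where they passed 1.5-fold. Over the 4 TCF/LEF genes, 5 of 27 pairs were higher and 7 lower in Enl-T1 (background 30.5% in either direction). Under treatment 2 were higher and 9 lower (background 21.4%). Tcf7l1 in NP1-like cells was 262, 85.8 and 125 CPM (600, 226 and 564 UMIs), at 0.327 of Enl-WT in Enl-T1 (0.280 to 0.382). It was lower in both clusters, at 352, 111 and 140.2 CPM and 191, 69.7 and 95.1 CPM, and in cells of male embryos, at 251 against 59.5 CPM, and of female embryos, at 252 against 91.1 CPM. In endothelial-like cells it was 112, 92.9 and 53.4 CPM. Tcf7l2 was higher in Enl-T1 in 4 of 8 classes, up to 1.83-fold in Foxd1 stroma-like cells, where it was 70.5, 129 and 93.8 CPM. With treatment it was lower in 3 of 8 classes, among them the distal class at 117, 179.8 and 84.5 CPM and endothelial-like cells at 155, 203 and 114 CPM.

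Tcf7 was lower in Enl-T1 in 4 of the 6 classes compared. It was 26.7, 9.42 and 13.8 CPM in committed-like cells (46, 7 and 22 UMIs), a ratio of 0.353 (0.135 to 0.788). The Foxd1 stroma-like class gave 16.8, 5.66 and 2.20 CPM (20, 13 and 3 UMIs), a ratio of 0.337 (0.154 to 0.713), with the log2 ratio turning to 0.33 in male cells only. In urothelium-like cells it was 8.53, 7.25 and 18.1 CPM, 2.502-fold higher with treatment (1.21 to 5.05), from 15 UMIs in the treated library.

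The rest of the pathway was summarised from 2 lists. Of 241 pairs from 61 other pathway genes, 11 were higher and 54 lower in Enl-T1 with a median log2 ratio of -0.29, and 11 of 231 were higher and 42 lower with treatment. Of 65 pairs from 13 beta-catenin target genes, 11 were higher and 15 lower in Enl-T1 with a median of 0.04, and 12 of 64 were higher and 14 lower with treatment. Over all genes 7735 of 73739 pairs were higher and 14773 lower in Enl-T1, and 5946 of 72216 higher and 9544 lower with treatment. Neither list was tested against these shares. Wls, which carries Wnt ligands to the cell surface, was 24.5, 64.6 and 26.5 CPM in NP1-like cells, 2.64-fold higher in Enl-T1 (1.94 to 3.64) and at 0.411 of Enl-T1 with treatment (0.322 to 0.522). The target Sp5 was 2.68, 5.23 and 21.1 CPM in tip-like cells, and Ccnd1, the cyclin D1 gene, was 1336, 2048 and 1782 CPM in committed-like cells. Apcdd1, a membrane inhibitor, was 6.70, 33.1 and 2.46 CPM in endothelial-like cells. It was 195, 225 and 188 CPM in medullary stroma-like cells and 1.42, 2.96 and 1.21 CPM in urothelium-like cells. In endothelial-like cells the 8 medullary markers summed to 629, 745.5 and 496 CPM and the 10 urothelium markers to 7.59, 46.7 and 2.46 CPM. The part of free RNA in the endothelial Apcdd1 value was not tested.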

How the data were processed

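The deposited files hold UMI counts per gene and cell barcode for each library, made by the authors with Cell Ranger 6.1.2 on mm10, per the submitters' processing notes. Each group is 1 library of pooled kidneys. Total UMIs were 37221435 in the Enl-WT library, 63336586 in the untreated and 76619303 in the treated Enl-T1 library. Barcodes of 1000 to 6000 genes and at most 10% mitochondrial UMIs were kept, as in the study. Cells were clustered with Seurat 5.3.0 (2000 variable genes, 30 principal components, resolution 0.5; lineages again with 20 components at 0.8), leaving out Wnt pathway, Hox and cell cycle genes. Clusters were named from marker lists, and the handling of the cell cycle was set after clusters were seen, so a difference from the study may come from the rebuilt names. Unnamed clusters were described by their leading genes and kept out of counts. The members, lists and the rule for named genes were chosen with earlier results of these data known. UMIs were summed per class and library and scaled to CPM without mitochondrial, ribosomal protein and haemoglobin genes. Exact Poisson intervals for levels and exact intervals for ratios, from the split of the 2 counts, cover counting error only. With 1 library per group there was no test, and a difference was counted at 1.5-fold for genes with a mean of at least 10 CPM. Named with values were each ligand in its highest Enl-WT class, Wnt5a in Foxd1 stroma-like cells, Axin2 and Lef1 in every class, and up to 10 member and class pairs per lineage and comparison. These pairs had the largest fold past 1.5-fold under 3 scalings, with an interval that left out 1. Genes outside the rule, and sums over a lineage, were added after their values were seen. Doublets stayed in; Scrublet as run in Scanpy 1.11.5 marked 136, 0 and 0 barcodes on its own threshold, and an alternative removed the 136, 346 and 333 with the highest scores. Other alternatives changed the scaling, filters, fold, embryo sex and clustering. The interval code was checked on simulated data. Gene positions came from the GRCm38 annotation and promoters from RefSeq GRCm38.p6, where 16 of 44 members had no entry.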

Additional observations from a re-analysis of the deposited data

Results flagged for a closer look

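The results here went in opposite directions in 2 classes under the same comparison, each past 1.5-fold with an interval that left out 1. With 1 library per group the difference between the classes was not tested for any of them, and each value is a log2 ratio.

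In Enl-T1 over Enl-WT, Wnt5a was at 1.15 in Foxd1 stroma-like cells and -0.86 in the distal tubule/loop of Henle-like class. Fzd7 was at 0.90 in committed-like cells and -0.99 in urothelium-like cells. Dkk2 was at 2.06 in Foxd1 stroma-like cells and -2.06 in endothelial-like cells, with 183 and 42 UMIs behind the endothelial value. Lef1 was at 1.37 in endothelial-like cells and -1.77 in Foxd1 stroma-like cells.

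In treated over untreated Enl-T1, Fzd7 was at 0.94 in urothelium-like cells and -1.37 in committed-like cells, the reverse of its order in the first comparison, with which it shares the Enl-T1 library. Rspo3 was at 0.63 in NP1-like cells and -2.07 in endothelial-like cells. Sfrp1 was at 0.88 in trunk-like cells and -0.73 in NP1-like cells, but the trunk value turned to -0.29 in male cells only and at a resolution of 0.5, and the ratio in the trunk cluster led by Aqp2 was 0.995. Axin2 was at 1.24 in trunk-like cells, but in the trunk cluster led by Aqp2 the ratio was 1.25 with an interval that includes 1 (0.810 to 1.96). In the distal class Axin2 was at -0.93, and at 0.01 with clustering on all variable genes.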

How the results depend on the processing

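No paired analysis was possible because each group is 1 library. Over 1055 alternative values of the named member and class pairs, 967 stayed within the counting interval with the same direction, 81 moved outside it and 7 reversed. For Enl-T1 over Enl-WT, lower pairs numbered 42 after centring by exonic length against 67. Higher pairs numbered 33 with a mean of at least 5 CPM, 33 in male cells only and 34 over 11 classes, an alternative chosen after seeing the data, against 21. At 2-fold, 10 were higher and 27 lower. For treated over untreated Enl-T1, 3 were higher and 21 lower at 2-fold, and 34 were higher in male cells only against 18. The Wnt5a share in Foxd1 stroma-like cells was 4.59 percentage points higher in Enl-T1 with thinning and 28.1 without. The reversed log2 ratios of Enl-T1 over Enl-WT were Tcf7 in Foxd1 stroma-like cells at 0.33 in male cells only and Fzd1 in trunk-like cells at 0.01 with at most 5% mitochondrial UMIs. Those of treated over untreated Enl-T1 were Rspo3 in Foxd1 stroma-like cells at 0.32 with clusters weighted alike, also chosen after seeing the data, Sfrp1 in trunk-like cells at -0.29 in male cells only and at -0.29 with a resolution of 0.5, Axin2 in the distal class at 0.01 with clustering on all variable genes, and Lef1 in Foxd1 stroma-like cells at -1.25 with that clustering. The cause was not tested. Pairs with under about 20 UMIs in a library are limited by depth.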
